A study of Homo sapiens with 8 samples.

Results

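Expression of 10 genes was examined in Rh41 cells after knockdown of G9a: the cadherins CDH1, CDH2, CDH4, CDH11 and CDH15, and the transcription factors SNAI1, SNAI2, ZEB1, ZEB2 and TWIST2. The genes were chosen by name for their role in cell adhesion and in epithelial-mesenchymal transition, with earlier results of these data known. Counts of members called are therefore set beside the share of all genes as description only. All 10 were found among the 60234 genes of the deposited table, each on 1 identifier. Rh41 is an established alveolar rhabdomyosarcoma line, from a tumour whose cells resemble muscle precursors, and it carries the PAX3-FOXO1 fusion. The 4 control libraries and the 4 libraries labelled siG9a all come from this fusion-positive line, and the groups differ in the label for knockdown alone. The sample labels write siG9a and the series title writes shG9a, so the kind of knockdown reagent is not settled here. The reagent used in the control and the time after knockdown are not given in the sources used here. G9a, encoded by EHMT2, is a methyltransferase of lysine 9 on histone H3.

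Cadherins are calcium-dependent adhesion proteins that join neighbouring cells and hold catenins on their inner side. E-cadherin (CDH1) marks epithelia, and N-cadherin (CDH2), R-cadherin (CDH4) and M-cadherin (CDH15) are found in neural tissue and in skeletal muscle and its precursors. SNAI, ZEB and TWIST proteins bind E-boxes, and in epithelial cells SNAI and ZEB proteins repress CDH1. SNAI1 has been reported to recruit G9a to the CDH1 promoter in breast cancer cells, and ZEB proteins repress through CtBP corepressors.

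The E-box CACCTG, which reads CAGGTG on the other strand, is the letter pattern most often named for SNAI and ZEB binding. It is shown here in the 250 bases before 2 RefSeq start sites (GRCh38.p14), 1 of a member that fell with the knockdown (ZEB1, the most upstream start listed) and 1 of a member that did not pass the test (CDH4, likewise). Capitals mark the match, which lies 57 bases before the ZEB1 start and 16 bases before the CDH4 start, both genes being on the plus strand.
ZEB1, chr10:31318167-31318416: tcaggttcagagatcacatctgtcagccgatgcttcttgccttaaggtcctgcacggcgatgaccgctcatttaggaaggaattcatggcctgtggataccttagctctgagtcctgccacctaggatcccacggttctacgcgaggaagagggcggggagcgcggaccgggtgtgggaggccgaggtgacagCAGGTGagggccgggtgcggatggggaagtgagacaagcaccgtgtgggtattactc
CDH4, chr20:61499171-61499420: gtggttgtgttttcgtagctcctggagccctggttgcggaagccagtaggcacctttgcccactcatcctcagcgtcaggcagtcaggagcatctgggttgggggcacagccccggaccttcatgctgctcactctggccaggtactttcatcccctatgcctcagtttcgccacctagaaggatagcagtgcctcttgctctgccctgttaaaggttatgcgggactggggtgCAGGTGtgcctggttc
Windows of 5 of the 10 members were examined (ZEB1, ZEB2, TWIST2, CDH2 and CDH4). No window was listed for CDH1, CDH11, CDH15 or SNAI1. SNAI2 was left out of the search, so the member count does not cover it. Of the 13 windows of the 5 members, 3 held the pattern on either strand, 2 of the 7 of ZEB1 and 1 of CDH4. Of all 35116 windows of this length, 17.5% held it. A match is a match of letters, not a measured binding site.

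Each library held between 1458825 and 1938665 reads assigned to genes, recovered from the deposited CPM (reads per 1000000 assigned reads). The libraries were made with QuantSeq, which reads transcript ends, so a CPM value does not scale with transcript length. Other differences in counting between genes were not checked, so comparisons of levels between genes are approximate. A gene at 10 CPM rested on at most 19.4 reads in a library. EHMT2 measured 57.6, 68.1, 87.3 and 88.3 CPM in control replicates 1 to 4 and 19.6, 35.1, 33.1 and 58.5 CPM in siG9a replicates 1 to 4. It was lower in 4 of 4 pairs of libraries with the same number, at 34.0%, 51.6%, 37.9% and 66.3% of control, although siG9a replicate 4 lay just above control replicate 1. For EHMT2 limma gave adjusted p = 0.191 with the group as the only term and 0.000472 with the replicate number as a block. The replicate 3 libraries of both groups stood apart from the others on the first principal component, which held 39.9% of the variance. They had less MYOD1, a muscle-defining factor (95.3 CPM in control and 127.9 CPM in siG9a, others 608 to 864 CPM), and more NEFM, a neurofilament gene (8046 CPM in control and 7625 CPM in siG9a, others 155.6 to 2498 CPM). Results of the tested members, and of some other genes, are therefore given below with and without both replicate 3 libraries. Of 9 markers of rhabdomyosarcoma and muscle, all had reads, and MYOG and OLIG2 lay below 12 CPM in every library. Mitochondrial genes took a larger share of reads after knockdown in 4 of 4 pairs, from 9.18% to 13.7% in pair 1, from 5.58% to 11.4% in pair 2, from 4.68% to 6.53% in pair 3 and from 4.59% to 5.21% in pair 4. The share of the 10 highest genes was likewise larger in 4 of 4 pairs, and the part of either share in the results was not tested.

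Over all 15092 genes averaging 1 CPM or more, limma called 0 genes (0%) at an adjusted p under 0.05 with the group as the only term, with 1880 genes at an unadjusted p under 0.05. With the replicate number as a block it called 1717 genes (11.4%), 984 of them lower in siG9a (6.52%) and 733 higher (4.86%). Of the 10 members, 8 reached a mean of 1 CPM and were tested. The group-only fit called 0 of these 8, with 2 at an unadjusted p under 0.05. The fit with the block called 3 of the 8, ZEB1, CDH15 and CDH1, all lower in siG9a. When the variance prior of that fit was not allowed to follow expression level, it called 0 of all genes tested, with 3274 at an unadjusted p under 0.05, and the limma adjusted p was 0.0775 for ZEB1, 0.0755 for CDH15 and 0.0585 for CDH1. The 8 members had a median log2 change of −0.46, with 7 below 0, beside a median of 0.015 over all genes tested. Lower values in 4 of 4 pairs were seen for 4 of the 8 (ZEB1, CDH15, CDH1 and CDH2) and for 15.3% of all genes tested. Without both replicate 3 libraries the fit with the block called 3 members and 7.14% of all genes, and the group-only fit called ZEB1 and CDH15 and 2.74% of all genes. On the recovered reads, edgeR with the block called the same number of members, 3, and 11.3% of all genes, DESeq2 with the block 2 members and 6.2%, and DESeq2 without the block 1 member, ZEB1, and 1.93%.

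**Figure D1:**
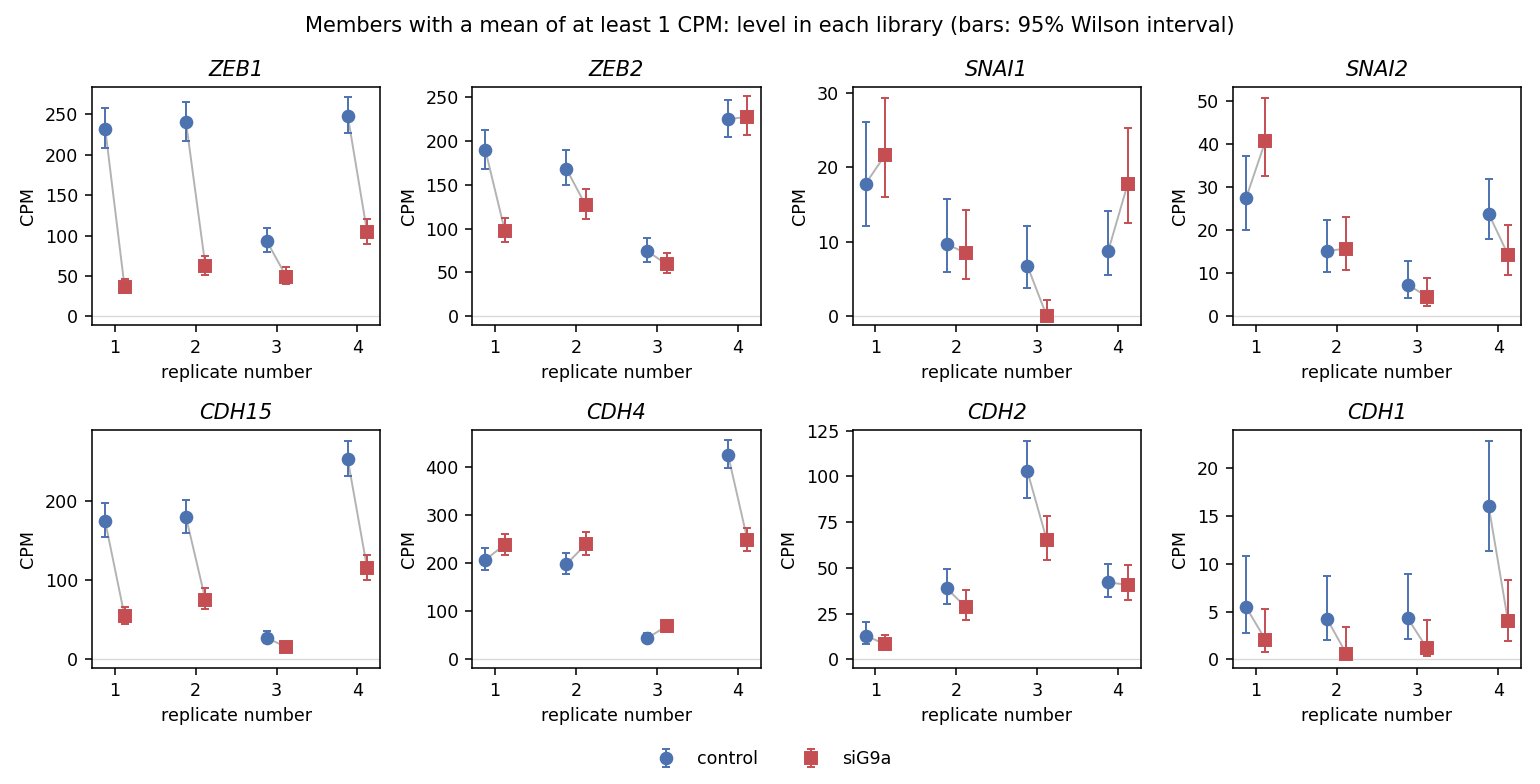
Level (CPM) of the 8 tested members in each library, by replicate number, with control as blue circles, siG9a as red squares, grey lines joining libraries with the same number and bars for the 95% Wilson interval of the read count. ZEB1, CDH15, CDH1 and CDH2 were lower in siG9a in 4 of 4 pairs, and CDH2 was highest in both replicate 3 libraries.

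ZEB1, a zinc finger and homeobox repressor of epithelial genes, was lower in every siG9a library than in its control. It measured 232, 240.02, 92.9 and 248 CPM in control replicates 1 to 4 and 36.1, 61.7, 49.1 and 103.8 CPM in siG9a. The siG9a libraries were at 15.5%, 25.7%, 52.9% and 41.8% of control in pairs 1 to 4, and the groups overlapped only because control replicate 3 lay below siG9a replicate 4. The means were 203 ± 74.0 and 62.7 ± 29.3 CPM (SD, n = 4 each), 3.24-fold lower in siG9a. On log2(CPM + 1) ZEB1 fell by 1.69, with an SE of 0.20 (block) or 0.37 (group only). For ZEB1 limma gave adjusted p = 4.84e-06 (block) and 0.114 (group only). Without both replicate 3 libraries the log2 change was −1.95 and the adjusted p 1.71e-05 with the block and 0.00172 without it. Leaving out control replicate 3 alone also brought the call in the group-only fit, with a log2 change of −2.03 and a limma adjusted p of 0.00626. ZEB1-AS1, an antisense gene that overlaps ZEB1 exons, was at 3.66 CPM in both groups, where the strand setting of the counting is not given in the sources used here.

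ZEB2 encodes the second ZEB repressor, with similar zinc finger clusters. It measured 189, 168, 74.4 and 225 CPM in control and 97.5, 126.5, 59.4 and 228 CPM in siG9a. The siG9a libraries were lower in pairs 1 to 3 and level with control in pair 4, and the groups overlapped. The log2 change was −0.42 with a 95% interval of −0.75 to −0.081 with the block and a limma adjusted p of 0.101, and 0.732 without the block. Without both replicate 3 libraries it was −0.45, and limma gave adjusted p = 0.188 (block) and 0.427 (group only). Without both replicate 4 libraries ZEB2 passed with the block, with a log2 change of −0.56 and a limma adjusted p of 0.0430, and leaving out 1 library moved the group-only log2 change between −0.11 (siG9a replicate 3) and −0.76 (control replicate 3). ZEB1 was set beside ZEB2 within each library, a comparison chosen after the values were seen and therefore given without a test. The log2 ratio of ZEB1 to ZEB2, each as CPM + 1, was 0.30, 0.51, 0.32 and 0.14 in control and −1.41, −1.02, −0.27 and −1.13 in siG9a. All 4 siG9a ratios lay below all 4 control ratios. By these values ZEB1 exceeded ZEB2 in each control library and was below it in each siG9a library. The 95% Wilson intervals of ZEB1 and ZEB2 overlapped in control replicates 1, 3 and 4 and in siG9a replicate 3. The difference in the mean log2 ratio was −1.27.

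SNAI1, a zinc finger repressor of the Snail family, was low and did not pass the test. It measured 17.8, 9.72, 6.76 and 8.83 CPM in control and 21.7, 8.47, 0 and 17.8 CPM in siG9a. It was higher in siG9a in pairs 1 and 4 and lower in pairs 2 and 3, and the 0 reads of siG9a replicate 3 allow up to 1.71 CPM (3 reads). The log2 change was −0.48 and limma gave adjusted p = 0.534 (block) and 0.867 (group only). Without both replicate 3 libraries it was 0.34, with a 95% interval of −0.38 to 1.06 with the block. With all libraries kept it was 0.16 by edgeR and 0.12 by DESeq2 without the block, and −0.03 and −0.49 with it. The direction for SNAI1 was therefore not settled. SNAI2, the other Snail family member expressed here and known in myoblasts for restraining MYOD1 target genes, measured 27.4, 15.2, 7.38 and 23.9 CPM in control and 40.7, 15.7, 4.57 and 14.3 CPM in siG9a. The groups overlapped, with replicate 3 lowest and replicate 1 highest in each. The log2 change of SNAI2 was −0.17 with a 95% interval of −0.75 to 0.40 with the block, and limma gave adjusted p = 0.761 (block) and 0.940 (group only). With the block, the 95% interval of SNAI1 was −1.38 to 0.42, so a decrease by 1 on the log2 scale lies within it for SNAI1 and outside the interval of SNAI2. Without both replicate 3 libraries the log2 change of SNAI2 was −0.03, and limma gave adjusted p = 0.965 (block) and 0.979 (group only). TWIST2, a basic helix-loop-helix factor, was listed at 0 in every library, where 3 reads correspond to between 1.55 and 2.06 CPM.

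CDH15, the M-cadherin of satellite cells and myoblasts, was lower in siG9a in 4 of 4 pairs. It measured 174, 179, 27.1 and 252 CPM in control and 54.7, 75.05, 15.4 and 114.7 CPM in siG9a. The siG9a libraries were at 31.4%, 41.9%, 57.0% and 45.5% of control in pairs 1 to 4. The groups overlapped because control replicate 3 was below 3 of the siG9a libraries. The means were 158 ± 94.4 and 65.0 ± 41.4 CPM (SD, n = 4 each), 2.44-fold lower in siG9a. On log2(CPM + 1) CDH15 fell by 1.20, with an SE of 0.17 (block) or 0.68 (group only). For CDH15 limma gave adjusted p = 5.50e-05 (block) and 0.508 (group only). Without both replicate 3 libraries the log2 change was −1.34, and limma gave adjusted p = 0.000193 (block) and 0.0113 (group only). Leaving out 1 library moved the group-only log2 change of CDH15 between −0.63 (siG9a replicate 3) and −1.91 (control replicate 3). Some muscle markers fell beside it: of the 9 markers of rhabdomyosarcoma and muscle, 7 had a log2 change below 0 and 2 above. The block called 5 of the 9 lower and 0 higher, beside 6.52% of all genes tested called lower. Without both replicate 3 libraries it called 4 lower, beside 7.14% of all genes called in either direction. DES, the muscle intermediate filament desmin, had a log2 change of −1.77, CHRNA1, a subunit of the muscle acetylcholine receptor, −1.15, and NOS1 −1.07, each lower in 4 of 4 pairs, and limma gave adjusted p = 6.69e-06, 7.52e-05 and 0.000451 (block). The others called were TFAP2B (−0.78) and FGFR4 (−0.59). Among those not called, MYOD1 had a log2 change of −0.03, MYOG −0.65 and CHRND, another acetylcholine receptor subunit, 0.21. For these limma with the block gave adjusted p = 0.935, 0.370 and 0.712. OLIG2 was not called either, and its log2 change, like that of CHRND, was above 0. The summed level of these markers was between 384 and 2059 CPM in control and between 339.7 and 1405 CPM in siG9a, and its part in the CDH15 result was not tested.

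CDH1, the epithelial cadherin that ZEB and SNAI proteins repress in epithelial cells, was near the lower limit of measurement and was lower, not higher, in siG9a. It measured 5.48, 4.25, 4.30 and 16.1 CPM in control (8, 7, 7 and 31 reads) and 2.06, 0.61, 1.14 and 4.01 CPM in siG9a (4, 1, 2 and 7 reads). All 4 siG9a values were below all 4 control values, a lack of overlap seen for 7.32% of all genes tested. The separation was narrow, since the 95% Wilson interval of siG9a replicate 4 (1.94 to 8.29 CPM) held the values of control replicates 1 to 3. Over the group, 53 reads in control stood against 14 in siG9a, and the mean of 7.53 ± 5.74 CPM (SD, n = 4) in control was 3.85-fold the siG9a mean of 1.96 ± 1.50 CPM (SD, n = 4). Control replicate 4 held 31 of the 53 reads, and without it the control mean was 4.68 CPM (n = 3) and the fold 2.39. On log2(CPM + 1) CDH1 fell by 1.47, with an SE of 0.40 (block) or 0.51 (group only). For CDH1 limma gave adjusted p = 0.0171 (block) and 0.273 (group only). The CDH1 call did not hold when both replicate 2 libraries (adjusted p 0.0872) or both replicate 4 libraries (0.0826) were left out of the fit with the block. DESeq2 with the block gave an adjusted p of 0.0839 and edgeR with the block 0.0172. Without both replicate 3 libraries the log2 change was −1.52, and limma gave adjusted p = 0.0487 (block) and 0.164 (group only).

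CDH4 and CDH2 did not pass the test in either fit. CDH4, the R-cadherin, was the highest of the 5 cadherins in 7 of the 8 libraries and measured 208, 198, 44.3 and 426 CPM in control and 239, 240 (239.7), 69.1 and 249 CPM in siG9a. It was higher in siG9a in pairs 1 to 3 and lower in pair 4. The log2 change was 0.083 with a 95% interval of −0.28 to 0.45 with the block, and limma gave adjusted p = 0.822 (block) and 0.971 (group only). Without both replicate 3 libraries it was −0.10, and limma gave adjusted p = 0.828 (block) and 0.891 (group only). CDH2, the N-cadherin, measured 13.0, 38.9, 102.7 and 42.1 CPM in control and 8.25, 28.4, 65.1 and 40.7 CPM in siG9a. It was lower in siG9a in 4 of 4 pairs, by little in pair 4. The log2 change was −0.43 with a 95% interval of −0.86 to −0.0087 with the block, and limma gave adjusted p = 0.187 (block) and 0.839 (group only). Without both replicate 3 libraries it was −0.36, and limma gave adjusted p = 0.472 (block) and 0.766 (group only). CDH11, a cadherin of mesenchymal cells, had 3 reads in all 8 libraries together (2 in control and 1 in siG9a) and was not tested.

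**Figure D2:**
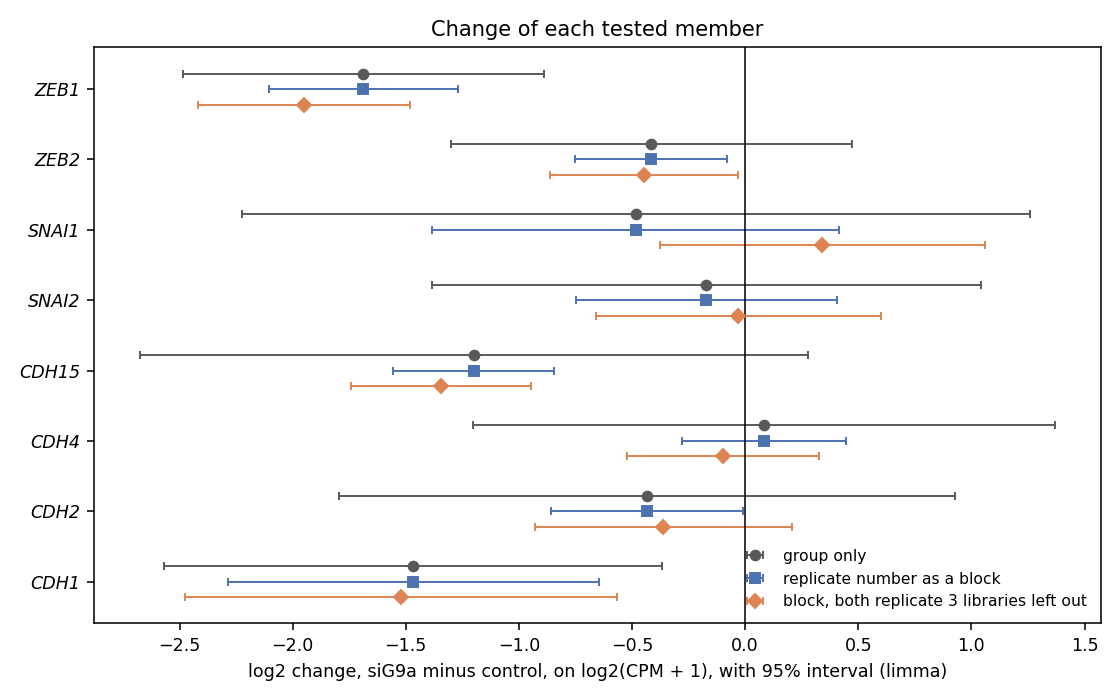
Log2 change of each tested member (siG9a minus control, on log2(CPM + 1)) with its 95% interval, from the group-only fit (grey), the fit with the replicate number as a block (blue) and that fit without both replicate 3 libraries (orange). ZEB1, CDH15 and CDH1 lie below 0 in all 3 fits except that the group-only interval of CDH15 reaches 0.28, and SNAI1 moves from −0.48 to 0.34 when the replicate 3 libraries are left out.

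The order of mean levels in control was CDH4 (219 CPM), ZEB1 (203 CPM), ZEB2 (164 CPM), CDH15 (158 CPM), CDH2 (49.2 CPM), SNAI2 (18.5 CPM), SNAI1 (10.8 CPM), CDH1 (7.53 CPM), CDH11 (0.30 CPM) and TWIST2 (listed at 0). The ranges over the 4 control libraries overlapped for each pair of neighbours from CDH4 to CDH1, although within single control libraries ZEB1 was above ZEB2 and SNAI2 above SNAI1 in 4 of 4. CDH1 (lowest 4.25 CPM) lay above CDH11 (highest 1.22 CPM). In siG9a the mean levels were 199 CPM for CDH4, 128 CPM for ZEB2, 65.0 CPM for CDH15, 62.7 CPM for ZEB1 and 35.6 CPM for CDH2.

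The difference between replicate 3 and the other libraries of its group was larger than the difference between the groups for all tested members except ZEB1 and CDH1. Taking replicate 3 minus the mean of the other 3 libraries on log2(CPM + 1), CDH15 was at −2.83 in control and −2.26 in siG9a, and CDH4 at −2.53 and −1.80. SNAI2 was at −1.43 and −1.99, and ZEB2 at −1.36 and −1.24. These 4 of the 8 tested members were lower by at least 1 in both groups, as were 7.23% of all genes tested. CDH2 went the other way, at 1.84 and 1.56, and 5.68% of all genes were higher by at least 1 in both groups. ZEB1 was at −1.36 in control and −0.32 in siG9a, CDH1 at −0.66 and −0.44, and SNAI1 at −0.70 and −3.99. In both groups CDH2 was lowest in replicate 1, highest in replicate 3 and between these in replicates 2 and 4. The same held for NEFM (155.6, 1562, 8046 and 1737 CPM in control, and 182, 2498, 7625 and 1597 CPM in siG9a) and for DSP, the desmosomal protein desmoplakin (7.54, 88.1, 377 and 89.3 CPM in control, and 20.1, 79.3, 203 and 105.5 CPM in siG9a). DSP was chosen after its values were seen. Without both replicate 3 libraries the log2 change was −1.95 for ZEB1, −1.34 for CDH15 and −1.52 for CDH1. NEFM still ranged from 155.6 to 1737 CPM over control replicates 1, 2 and 4. The part of NEFM-rich or MYOD1-poor material in the member results was not tested. In bulk RNA, fewer cells of a type and less RNA per cell cannot be told apart.

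**Figure D3:**
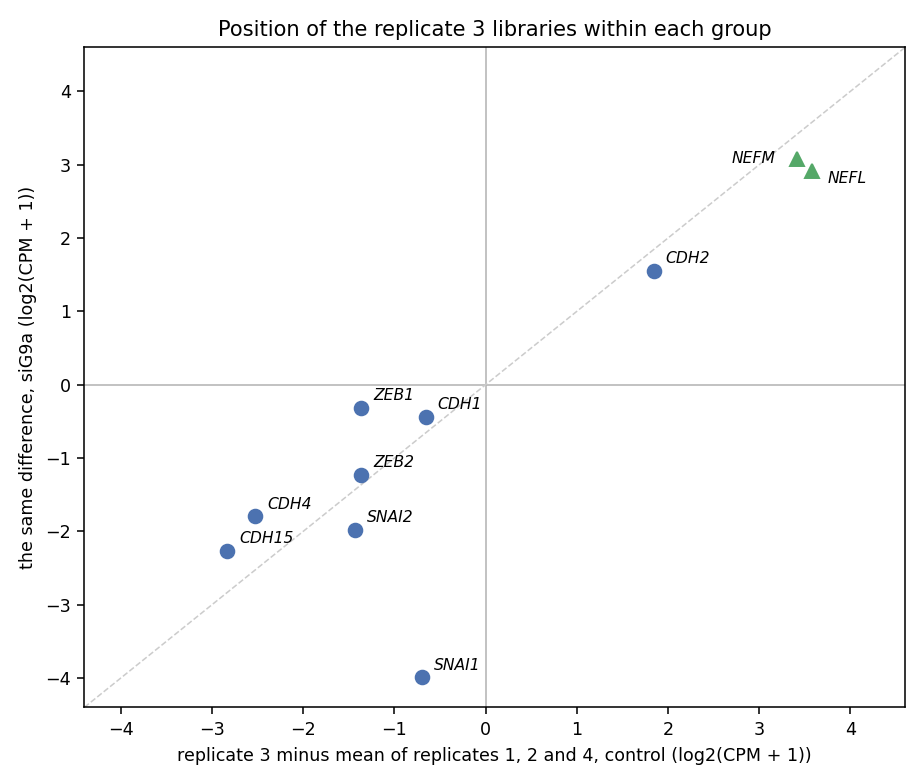
Replicate 3 minus the mean of replicates 1, 2 and 4, on log2(CPM + 1), in control (horizontal) and in siG9a (vertical), for the 8 tested members (circles) and the neurofilament genes NEFM and NEFL (triangles), with the dashed line marking equal differences. CDH2 lies with the neurofilament genes at the upper right, the other members lie at the lower left, and SNAI1 lies far below the line because siG9a replicate 3 had 0 reads.

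The genes with the profile most like each member over the 8 libraries were ranked by the root mean square difference of log2(CPM + 1), each gene centred on its own mean, among 10862 genes averaging 5 CPM or more. Nearest to ZEB1 were the pseudogene EEF1DP3 (0.22), the receptor tyrosine kinase signalling inhibitor SPRY1 (0.28) and the DNA methyltransferase DNMT3A (0.28), where ZEB1 itself varied by 1.02 about its mean. Nearest to CDH15 were MDFI, an inhibitor of myogenic factors (0.26), LFNG, a modifier of Notch receptors (0.29), and PITX3 (0.30), where CDH15 varied by 1.30. Nearest to CDH2 were the forkhead factor FOXC1 (0.21), ONECUT2 (0.22) and ADAM15 (0.22), where CDH2 varied by 1.06. CDH4 was nearest to ZNF667 (0.24), SNAI2 to FAM200B (0.21), ZEB2 to TMEM8B (0.14) and SNAI1 to HTRA3 (0.44). Among the members themselves, ZEB2 was the nearest to ZEB1 (0.71), to CDH15 (0.68) and to CDH4 (0.59), while no member came closer to CDH2 than ZEB1 (1.39). These likenesses are descriptions over the same 8 libraries, which include both replicate 3 libraries.

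Related genes were read from the same fit in 7 lists, chosen with earlier results of these data known. Over all genes tested, the block called 6.52% lower and 4.86% higher, and the groups did not overlap for 7.32%. These shares stand beside every count of calls and every lack of overlap in the lists below. Of 10 other transcription factors named for epithelial-mesenchymal transition, 8 were tested, with a median log2 change of −0.091, and the block called 0 higher and 1 lower. That gene was TCF4, a partner of basic helix-loop-helix factors, which went from 148 ± 30.4 to 90.1 ± 42.7 CPM (SD, n = 4 each) and had a log2 change of −0.79 and limma gave adjusted p = 0.00290 (block) and 0.304 (group only). FOXC1 (log2 change −0.51, limma adjusted p 0.0636 with the block) and SOX9 (−0.67, 0.228) were lower in 4 of 4 pairs but did not pass. Of 14 other cadherins, 6 were tested and 5 were at 0 in every library. The median log2 change was 0.060 and the block called none of the 6. CDH24 was at 7.24 ± 1.86 CPM (SD, n = 4) in control and 3.31 ± 1.68 CPM (SD, n = 4) after knockdown, with no overlap, and limma with the block gave adjusted p = 0.0956. CDH18 had 1 read in all of control and a mean of 2.64 CPM in siG9a (limma adjusted p 0.0842 with the block), and CDH13, a cadherin with a lipid anchor, was at 58.9 and 54.6 CPM.

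Of 12 catenins and junction linkers, 11 were tested, with a median log2 change of −0.022. The block called 0 of them higher and 3 lower, beside 4.86% and 6.52% of all genes tested. CTNNB1, the β-catenin that binds the tails of classical cadherins, went from 235 ± 31.6 to 162 ± 14.7 CPM (SD, n = 4 each) without overlap, a log2 change of −0.53 and limma gave adjusted p = 0.0147 (block) and 0.274 (group only). NECTIN2, an immunoglobulin-like adhesion protein, had a log2 change of −0.95 (limma adjusted p 0.00269 with the block). VCL, the actin linker vinculin, had −0.67 (0.0263). The calls of CTNNB1 and VCL were lost without both replicate 3 libraries, where limma with the block gave adjusted p = 0.0549 and 0.134. Of 12 corepressors and regulators of SNAI and ZEB proteins, 11 were tested, with a median of 0.045, and the block called 1. CTBP2, a corepressor of ZEB proteins, went from 269 ± 93.9 to 156 ± 19.4 CPM (SD, n = 4 each) without overlap, a log2 change of −0.73 and limma gave adjusted p = 0.00246 (block) and 0.244 (group only). KDM1A, a histone demethylase of the SNAI1 complex (0.45), and AJUBA (−0.69) did not pass.

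Of 19 epithelial genes, 7 were tested and 5 were at 0 in every library. All 7 had a log2 change above 0, with a median of 0.27, and the block called none of them. The largest log2 changes were those of OCLN, the tight junction protein occludin (0.33 CPM in control and 2.21 CPM in siG9a), and the keratin KRT19 (4.83 and 9.20 CPM). The highest levels were those of DSP (140.5 and 101.9 CPM) and KRT18 (17.1 and 14.1 CPM), whose mean CPM was lower in siG9a. KRT19 had a log2 change of 0.92 (limma adjusted p 0.341 with the block) and of −2.48 in pair 3 alone. It was called in 1 of 13 fits with the block, the one without both replicate 3 libraries (log2 change 2.06, limma adjusted p 0.0182). KRT8 had a log2 change of 0.37. The summed level of the epithelial list was between 15.8 and 464 CPM in control and between 57.8 and 257 CPM in siG9a, highest in replicate 3 of both groups, and DSP was most of it there. EPCAM had 1 read in 2 libraries and 0 in the others, and CLDN3, ESRP2, OVOL1, OVOL2 and RAB25 were at 0 throughout. Of 18 mesenchymal genes, 17 were tested, 13 of them below 0, with a median of −0.40, and the block called 3 lower. MMP2, a gelatinase, went from 19.1 ± 9.44 to 4.18 ± 3.87 CPM (SD, n = 4 each), a log2 change of −2.23 and limma gave adjusted p = 0.000306 (block) and 0.214 (group only). SPARC, a matrix protein, had −0.92 (limma adjusted p 0.00161 with the block) and COL1A1 −0.85 (0.0410). Without both replicate 3 libraries the block kept MMP2 (0.00362) and lost SPARC (0.0541) and COL1A1 (0.382). Of 8 fibroblast markers, DCN, LUM, THY1 and POSTN had at most 2 reads in any library, while COL1A1 had 583 reads over the 8 libraries, COL1A2 70, PDGFRB 50 and PDGFRA 45. Their summed level was between 55.03 and 72.3 CPM in control and between 13.7 and 71.1 CPM in siG9a, and its part in the mesenchymal list was not tested.

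Of 12 genes of myoblast adhesion and fusion, 11 were in the table and 8 were tested, with a median log2 change of −0.35, and the block called 0 higher and 3 lower. JAM3, a junctional adhesion molecule, went from 153.9 ± 56.9 to 81.4 ± 33.3 CPM (SD, n = 4 each), a log2 change of −0.92 and limma gave adjusted p = 0.000506 (block) and 0.327 (group only). Its relative JAM2 went from 6.99 to 1.59 CPM (−1.89, adjusted p 0.0117 with the block), and NCAM1, the neural cell adhesion molecule of regenerating muscle, from 130.3 to 81.4 CPM (−0.57, 0.0258). All 3 were lower in 4 of 4 pairs and were called with the block without both replicate 3 libraries, with limma adjusted p-values of 0.00528, 0.0206 and 0.0190. Beside them, 5 of the 9 muscle markers were also called lower, as given with CDH15. The 7 lists had 8, 6, 11, 11, 7, 17 and 8 genes tested, in the order given above. The block called 11 of these lower in siG9a, beside 6.52% of all genes tested called lower.

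**Figure D4:**
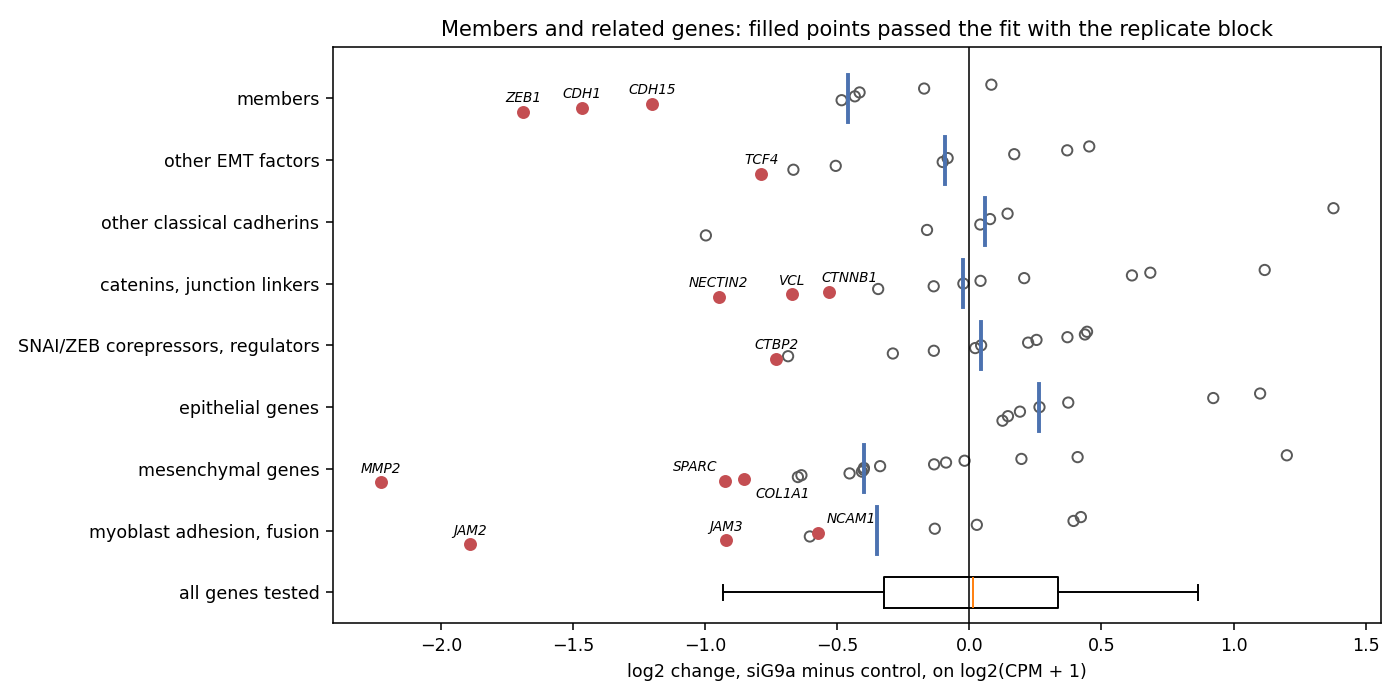
Log2 change (siG9a minus control, on log2(CPM + 1)) of each tested gene among the members and the 7 lists of related genes, with filled red points for genes past an adjusted p of 0.05 in the fit with the block, blue lines for medians and a box with whiskers from the 5th to the 95th percentile for all genes tested. With 1 mesenchymal gene not drawn, ZEB1, CDH1 and CDH15 lie below −1, the 7 tested epithelial genes lie above 0 with none filled, and MMP2 and JAM2 lie farthest left among the related genes.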

How the data were processed

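Expression was measured by 3′ end sequencing of total RNA in 4 control and 4 siG9a libraries. The authors deposited 1 table of CPM (reads per 1000000 assigned reads) with 2 decimals. The submitters' processing notes name FastQC 0.11.8, Trim Galore, STAR 2.5.0a, HTSeq 0.8.0 and edgeR 3.28, and both GRCh38 and hg19. The annotation and strand setting are not given in the sources used here. All columns belong to the 8 samples (0 unused).

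Whole reads were recovered for 100% of values (tolerance 0.0055 CPM), and 1 read was worth 0.516 to 0.685 CPM. Intervals and limits cover counting error only. The main test was limma 3.58.1 (R 4.3.3) with eBayes trend on log2(CPM + 1), for genes averaging 1 CPM or more, with Benjamini-Hochberg adjustment over all 15092 and a threshold of 0.05. Fold changes on this scale understate changes of low genes. edgeR 4.0.16 and DESeq2 1.42.0 were run on the recovered reads as alternatives. The fits were also run on simulated counts in which both groups shared the mean of each replicate number. Those counts were paired by construction, so they cannot show whether the block suits these data.

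The replicate numbers in the sample titles were used as a block beside the main test. Same-numbered libraries deviated together, with correlations of 0.500, 0.104, 0.673 and 0.130 in pairs 1 to 4. Control replicate 2 correlated more with siG9a replicate 4 (0.144) than with its own number, and 6 of 8 libraries correlated best with their own. The labels do not say what a number stands for, and the design text calls the 4 replicates biological.

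The members and lists were chosen with earlier results of these data known. Named genes were the members, EHMT2, the 3 genes of each list with the smallest p in the fit with the block, and the 3 nearest profiles. Exceptions are stated where they occur. The result of 1 gene of the mesenchymal list is not reported here.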

Additional observations from a re-analysis of the deposited data

Results flagged for a closer look

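Of 16 groups of 4 libraries tested for a single value far from the others (Dixon's test), 3 had one, where independent tests would give about 0.8. The groups share the same 8 libraries, so the tests are not independent. The ZEB1 and CDH4 values below lie in replicate 3 libraries, which stood apart from the others. CDH1 was at 16.1 CPM in control replicate 4, the others of its group at 4.25 to 5.48 CPM. ZEB1 was at 92.85 CPM in control replicate 3, the others at 232 to 248 CPM. CDH4 was at 69.08 CPM in siG9a replicate 3, the others at 239 to 249 CPM.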

How the results depend on the processing

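With the group as the only term, the test called 0 genes, and the pairing by replicate number decided most calls. With the block the counts over all genes, members and lists were 1717, 3 and 12, and without both replicate 3 libraries 1078, 3 and 9. With the block and without the pair of replicate 1, 2 or 4 they were 951, 668 and 1393 genes, 3, 2 and 3 members, and 9, 5 and 12 list genes; without the pair of replicate 4 the members were ZEB1, CDH15 and ZEB2, not CDH1. edgeR with the block gave 1709, 3 and 11, DESeq2 with the block 936, 2 and 9, and DESeq2 without it 292 genes and 1 member. Additions chosen after seeing the data, all with the block, gave 1363, 3 and 10 (pseudocount 0.1), 1710, 3 and 12 (pseudocount 5), 840, 2 and 7 (no filter), 1653, 2 and 9 (mean of at least 5 CPM), 1694, 3 and 11 (median-ratio scaling) and 0 of each without trend. Group only, no filter gave 18 genes, and leaving out both replicate 3 libraries gave 413, 2 and 2. Leaving out 1 library gave 0 to 300 genes (most without control replicate 3), 0 to 1 members and 0 to 1 list genes.

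Log2 changes of the opposite sign were these. CDH2 was at 0.03 without control replicate 3 and 0.12 without siG9a replicate 1. CDH4 was at −0.10 without both replicate 3 libraries, −0.55 without control replicate 3, −0.06, −0.06 and −0.08 without siG9a replicates 1, 2 and 4, and −0.12 by edgeR and by DESeq2. SNAI1 was at 0.34 without both replicate 3 libraries, 0.51 without siG9a replicate 3, 0.16 by edgeR and 0.12 by DESeq2. SNAI2 was at 0.06 without control replicate 1, 0.33 without siG9a replicate 3, 0.0046 with the block without replicate 4, 0.042 by edgeR and 0.024 by DESeq2. FOXC1 was at 0.06 and 0.12 without control replicate 3 and siG9a replicate 1, CDH13 at 0.05 and 0.33 without control replicate 4 and siG9a replicate 3, and KRT8 at −0.13 without control replicate 2 and −0.29 with the block without replicate 2. At the other end, leaving out 1 library gave −0.93 for CDH2, 0.53 for CDH4, −0.99 for SNAI1, −0.64 for SNAI2, −1.08 for FOXC1, −0.57 for CDH13 and 0.84 for KRT8. The causes were not tested. ZEB1 and CDH15 were called in 12 of 13 fits with the block and CDH1 in 7 of 12. The log2 ratio of ZEB1 to ZEB2 differed by −1.12 to −1.50 when 1 library was left out. Depth limits TWIST2 and CDH11, which were not tested, and the low members CDH1, SNAI1 and SNAI2.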
